A study of Sus scrofa with 11 samples.

Results

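The genes described here are 10 markers of T cells and natural killer (NK) cells, chosen by name and not by their values: CD3D, CD3E, CD3G, CD2, CD8A, LCK, GZMB, PRF1, NKG7 and KLRK1. Of these, 6 were matched by symbol to a row of the 12505 genes in the table: CD3E, LCK, CD2, CD8A, KLRK1 and NKG7. All 6 passed the filter on low values, which asked for at least 1 FPKM in at least 2 libraries. CD3D, CD3G, GZMB and PRF1 matched no row and are not analysed here, so a single CD3 chain stands for the antigen receptor complex, and neither granzyme B nor perforin stands for the killing granule. Levels are in FPKM, fragments counted on a transcript per kilobase of its length and per 1e6 fragments mapped.

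RNA came from the liver of wild-type pigs in 4 groups. The control group had 2 libraries labelled day 0, and 20, 30 and 40 Gy of hepatic irradiation had 3 libraries each, all labelled day 35. Every group shares the wild-type genotype, no other allele or agent is named, and the sources used here give no age. Dose and elapsed time cannot be told apart against control, whereas the doses can be set against each other at the same day. The labels name the hepatocyte as the cell type, but the RNA was extracted from liver pieces: 9 of 10 hepatocyte markers were in the table and all 9 had at least 1 FPKM in every library, while all 10 general leukocyte markers were in the table and 9 of them had at least 1 FPKM in every library. The labels do not state whether each library is an animal of its own, so a p-value reflects only how the libraries scatter, and that scatter may be technical.

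T cells recognise peptides on other cells through the T cell receptor, which signals inward through the CD3 chains and the kinase LCK. Cytotoxic T cells carry the coreceptor CD8, which binds class I molecules of the major histocompatibility complex, and CD2 helps T and NK cells to adhere to their partners. NK cells and cytotoxic T cells kill by releasing granules onto a target, and the receptor NKG2D, the product of KLRK1, recognises ligands that appear on stressed or damaged cells. The liver is known for its many resident T and NK cells, most of them in the sinusoids, and lymphocytes are among the cells that radiation kills most readily. In RNA from whole tissue, fewer cells of a type and less RNA per cell cannot be told apart.

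Libraries that stand apart bear on all results. Over the 4806 genes with at least 5 FPKM in every library, the SD of the log2 ratio between 2 libraries was 0.13 for 20Gy-3 against 30Gy-3, called the cross-dose pair below, and 0.14 for 30Gy-1 against 30Gy-2, called the 30 Gy pair. The other 53 pairs lay between 0.31 and 1.01. In the means ± SD below, the 30 Gy pair was averaged and counted as 1 sample, so n = 2 at 30 Gy, while the model used each library. The library 40Gy-1 was nearest to 20Gy-2 (0.63) and 0.86 and 0.89 away from 40Gy-2 and 40Gy-3, whereas 40Gy-2 and 40Gy-3 differed by 0.35. The counts of calls among the 6 genes and among the wider lists are therefore also given without 40Gy-1 or with the near-identical libraries changed, while counts of groups that do not overlap and of unadjusted p-values are given for all libraries. The deposited FPKM of a library summed to between 520839 and 949840, and the depth is unknown.

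The T cell genes CD3E, LCK, CD2 and CD8A were higher in each of the 6 libraries of 20 and 30 Gy than in both controls, by 0.62 to 1.09 on the log2(FPKM + 1) scale, but none of these differences passed the test. At 40 Gy all 4 stayed above both controls in the library 40Gy-1. In 40Gy-2 and 40Gy-3 CD3E, LCK and CD2 lay below both controls, and CD8A lay between them. CD3E fell at 40 Gy against both lower doses, LCK fell against 30 Gy and KLRK1 fell against 20 Gy. NKG7 showed none of this and was highest in 40Gy-1. All levels were low, mostly under 4 FPKM except for NKG7, so the pseudocount of 1 understates the fold changes.

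**Figure D1:**
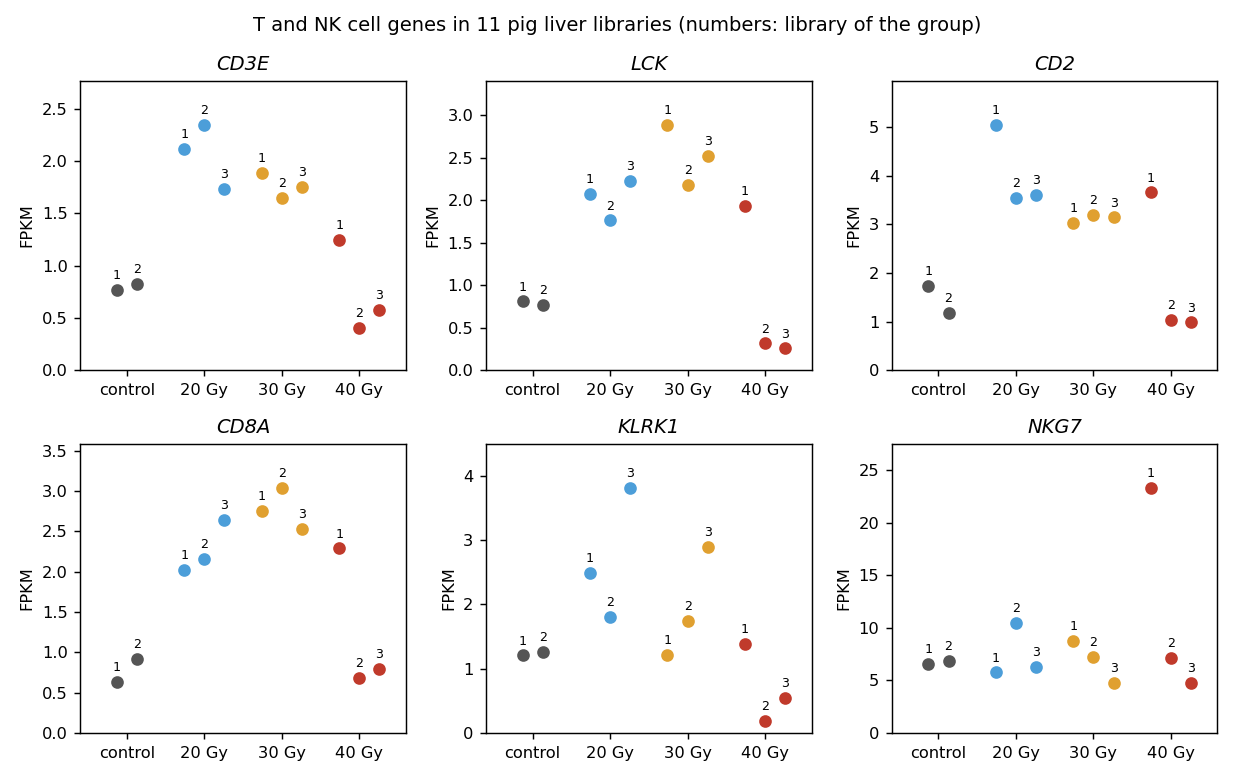
Each panel plots the FPKM of 1 gene, with 1 point per library, the number of the library within its group above the point and the 4 groups along the horizontal axis. CD3E, LCK, CD2 and CD8A sit above both controls in all 6 libraries of 20 and 30 Gy, and 40Gy-1 sits above 40Gy-2 and 40Gy-3 in all 6 panels.

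CD3E encodes the epsilon chain of CD3, without which the T cell receptor does not reach the cell surface (ENSSSCG00000040140, chromosome 9, 45619730 to 45633972 in Sscrofa11.1). Its level was 0.769 and 0.825 FPKM in the 2 controls, 2.12, 2.34 and 1.73 at 20 Gy, 1.89, 1.65 and 1.75 at 30 Gy, and 1.25, 0.402 and 0.579 at 40 Gy, in the order of the library numbers. The 20 and 30 Gy libraries overlapped each other and neither overlapped control or 40 Gy. The 40 Gy libraries lay on both sides of the controls, with 40Gy-1 above them and 40Gy-2 and 40Gy-3 below. The means were 0.797 ± 0.0399 FPKM in control (SD, n = 2), 2.07 ± 0.308 at 20 Gy (n = 3), 1.76 ± 0.0114 at 30 Gy (n = 2) and 0.743 ± 0.447 at 40 Gy (n = 3).

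Against control, the log2 difference of CD3E was 0.77 at 20 Gy (SE 0.206, limma with Benjamini-Hochberg adjustment over all genes tested, adjusted p = 0.0659), 0.62 at 30 Gy (adjusted p = 0.156) and -0.07 at 40 Gy (adjusted p = 0.859). CD3E fell by 0.84 at 40 Gy against 20 Gy (SE 0.184, adjusted p = 0.0171 in limma). It also fell by 0.69 against 30 Gy (SE 0.184, adjusted p = 0.037 in limma). The call against 20 Gy was lost without any 1 of 20Gy-1, 40Gy-2 or 40Gy-3 (limma, adjusted p 0.0633 to 0.0697) and with the cross-dose pair left out (0.0559, or 0.125 with the 30 Gy pair also averaged). Over all alternatives the adjusted p in limma ran from 0.000662 to 0.125 for this comparison and from 0.00157 to 0.506 for 40 against 30 Gy, where 12 of 24 alternatives lost the call. Leaving out any 1 of control-1, control-2, 20Gy-1, the 30 Gy libraries, 40Gy-2 or 40Gy-3 was among them (limma, adjusted p 0.0523 to 0.147).

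LCK, the SRC-family kinase that phosphorylates the CD3 chains, had a similar order of groups (ENSSSCG00000003608, chromosome 6, 88719886 to 88745922). It stood at 0.809 and 0.773 FPKM in the controls, 2.08, 1.76 and 2.23 at 20 Gy, 2.89, 2.18 and 2.52 at 30 Gy, and 1.93, 0.316 and 0.256 at 40 Gy. The library 40Gy-1 fell inside the 20 Gy range, whereas 40Gy-2 and 40Gy-3 were the lowest of all 11 libraries. The mean was 0.791 ± 0.0255 FPKM in control (SD, n = 2), 2.03 ± 0.24 at 20 Gy (n = 3), 2.53 ± 0.00557 at 30 Gy (n = 2) and 0.835 ± 0.951 at 40 Gy (n = 3).

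LCK fell by 1.06 at 40 Gy against 30 Gy (SE 0.283, limma with Benjamini-Hochberg adjustment, adjusted p = 0.0378). The adjusted p of this comparison ran from 0.000143 to 0.503 over the alternatives. The call was lost without any 1 of control-1, control-2, 20Gy-1, 20Gy-3, the 30 Gy libraries, 40Gy-2 or 40Gy-3 (limma, adjusted p 0.0559 to 0.153), and it held without 20Gy-2 and without 40Gy-1. Against 20 Gy the log2 difference was -0.84 (SE 0.283, adjusted p = 0.0711 in limma). Against control it was 0.75 at 20 Gy, 0.97 at 30 Gy and -0.08 at 40 Gy (limma, adjusted p = 0.201, 0.148 and 0.904).

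CD2, the adhesion receptor of T and NK cells, lies on chromosome 4, 103963802 to 103976971 (ENSSSCG00000006736). Its level was 1.73 and 1.17 FPKM in the controls, 5.04, 3.54 and 3.61 at 20 Gy, 3.03, 3.20 and 3.14 at 30 Gy, and 3.65, 1.04 and 0.984 at 40 Gy. All 20 Gy libraries exceeded all 30 Gy libraries, and 40Gy-1 lay among the 20 Gy libraries, while 40Gy-2 and 40Gy-3 were below both controls. No comparison of CD2 passed the test: the log2 difference was 1.04 at 20 Gy against control (SE 0.331, adjusted p = 0.107 in limma) and -0.92 at 40 against 20 Gy (SE 0.296, adjusted p = 0.0622). The second of these passed with quantile normalization (adjusted p = 0.0436 in limma), with each library scaled to the same median (0.046) and without 40Gy-1 (0.000484).

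CD8A, the alpha chain of the CD8 coreceptor, lies on chromosome 3, 57999228 to 58029768 (ENSSSCG00000008217). It stood at 0.637 and 0.919 FPKM in the controls, 2.02, 2.16 and 2.65 at 20 Gy, 2.76, 3.04 and 2.53 at 30 Gy, and 2.29, 0.680 and 0.798 at 40 Gy. Here 40Gy-1 again lay inside the 20 Gy range, and 40Gy-2 and 40Gy-3 lay between the controls. Against control the log2 difference of CD8A was 0.88 at 20 Gy and 1.09 at 30 Gy (SE 0.266 for both, adjusted p = 0.0922 and 0.0596 in limma). Between 40 and 30 Gy it was -0.81 (SE 0.238, adjusted p = 0.0514 in limma), and it passed with each library scaled to the same median (0.0329) and with quantile normalization (0.0326). CD8B, the beta chain of the same coreceptor, was low and scattered, from 0.136 FPKM in control-2 to 1.48 in 20Gy-1.

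KLRK1, the gene of NKG2D, lies on chromosome 5, 61646691 to 61655386 (ENSSSCG00000040465). Its level was 1.21 and 1.26 FPKM in the controls, 2.49, 1.80 and 3.81 at 20 Gy, 1.22, 1.74 and 2.90 at 30 Gy, and 1.38, 0.181 and 0.549 at 40 Gy. The highest values were those of 20Gy-3, 30Gy-3 and 20Gy-1, of which the first pair is the cross-dose pair. The means were 1.23 ± 0.0366 FPKM in control (SD, n = 2), 2.70 ± 1.02 at 20 Gy (n = 3), 2.19 ± 1.0 at 30 Gy (n = 2) and 0.704 ± 0.616 at 40 Gy (n = 3).

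KLRK1 fell by 1.14 at 40 Gy against 20 Gy (SE 0.300, limma with Benjamini-Hochberg adjustment, adjusted p = 0.0314, range over the alternatives 0.00454 to 0.176). The call was lost without any 1 of 20Gy-1, 20Gy-3, 30Gy-2, 40Gy-2 or 40Gy-3 (limma, adjusted p 0.0505 to 0.116), and with the cross-dose pair left out (0.102). Against control the log2 difference was 0.69 at 20 Gy (SE 0.336, adjusted p = 0.256 in limma) and -0.45 at 40 Gy (adjusted p = 0.441).

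NKG7, a membrane protein of cytotoxic granules, was the most abundant of the 6 genes per length of transcript (ENSSSCG00000003231, chromosome 6, 58496089 to 58497827). Its level was 6.56 and 6.83 FPKM in the controls, 5.76, 10.5 and 6.30 at 20 Gy, 8.73, 7.21 and 4.80 at 30 Gy, and 23.3, 7.15 and 4.74 at 40 Gy. Apart from 40Gy-1 the groups overlapped. The log2 difference of NKG7 was 0.11, 0.01 and 0.44 at 20, 30 and 40 Gy against control (SE 0.512 at 40 Gy, adjusted p = 0.926, 0.996 and 0.634 in limma), and without 40Gy-1 the last of these was -0.17. Across the 11 libraries its correlation with the mean profile of the other 5 genes was 0.19, against 0.71 for KLRK1 and 0.90 to 0.94 for CD3E, CD8A, CD2 and LCK. These are Pearson correlations of log2(FPKM + 1), and the points include the near-identical libraries.

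**Figure D2:**
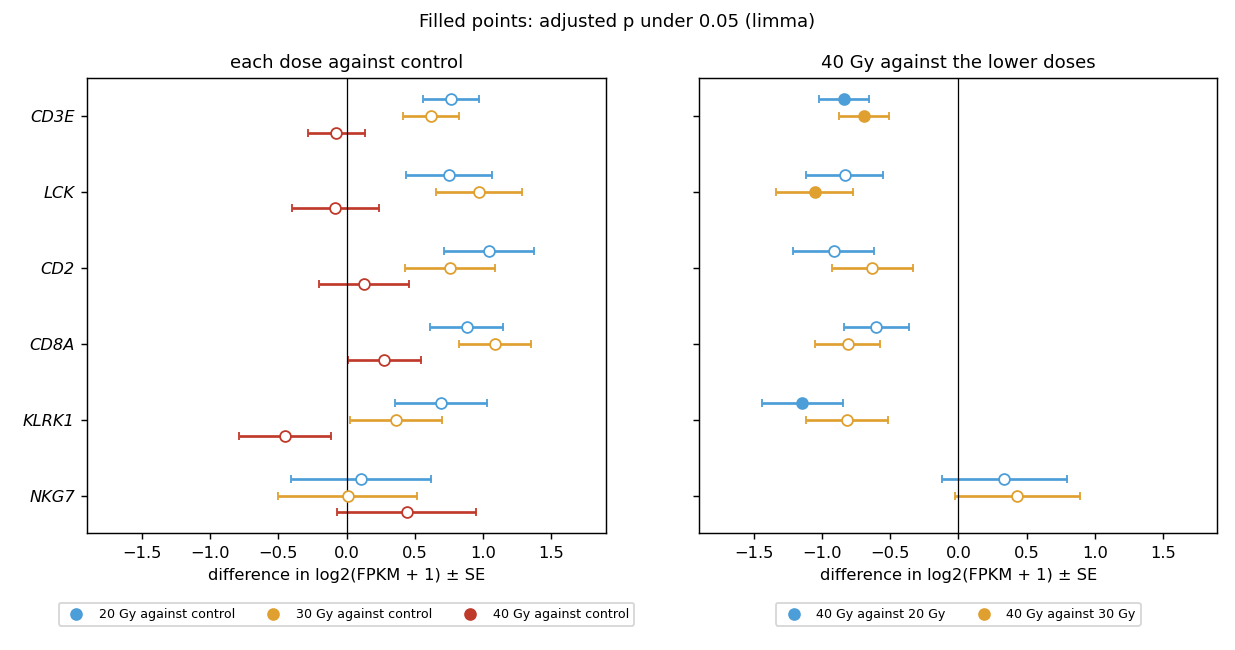
Points are differences in log2(FPKM + 1) with 1 SE of the limma model on the horizontal axis, for each dose against control on the left and for 40 Gy against 20 and 30 Gy on the right, and a filled point has an adjusted p under 0.05. The 20 and 30 Gy points of CD3E, LCK, CD2 and CD8A lie right of 0 and are open, and 4 points are filled, all of them on the right: CD3E in both comparisons, LCK against 30 Gy and KLRK1 against 20 Gy.

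Against control, 0 of the 6 genes were called in any of the 4 comparisons (limma, adjusted p under 0.05), while 4.71% of the 11644 genes tested were called in all irradiated libraries against control, 4.23% at 20 Gy, 3.03% at 30 Gy and 7.39% at 40 Gy. At an unadjusted p under 0.05 in limma, CD3E, CD2 and CD8A were among the 2340 genes of the first of these comparisons and CD3E, CD2, CD8A and LCK among the 2562 at 20 Gy and the 1921 at 30 Gy. None of the 6 was among the 2883 at 40 Gy. The median log2 difference of the 6 genes was 0.76 at 20 Gy, 0.69 at 30 Gy and 0.03 at 40 Gy, beside -0.03, -0.02 and 0.06 over all genes tested. All 20 Gy libraries exceeded both controls for 5 of the 6 genes, beside 19.1% of the genes tested, and all 30 Gy libraries did so for 4 of the 6, beside 20.1%. The genes that did so at both doses were CD3E, CD2, CD8A and LCK, beside 14.8% of the genes tested. No gene of the 6 had all 40 Gy libraries above both controls (19.5% of the genes tested) or below both (17.9%). All 40 Gy libraries lay below all 20 Gy libraries for CD3E and KLRK1 (13.3% of the genes tested) and below all 30 Gy libraries for CD3E, CD8A and LCK (14.5%), so that only CD3E did so for both doses (10.8%).

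These counts turned on the library 40Gy-1. Leaving it out kept the differences at 20 and 30 Gy against control, since it belongs to none of those groups. Only the estimate of spread that all groups share changed, and with it the p-values. Without 40Gy-1, CD2, CD3E, CD8A and LCK were called as higher at 20 Gy (limma, adjusted p = 0.00456, 0.00771, 0.00525 and 0.00875), beside 6.96% of the genes tested that rose. The same 4 genes were called as higher at 30 Gy (adjusted p = 0.0212, 0.0233, 0.00216 and 0.00304 in limma), beside 4.71%. With the 30 Gy pair also averaged, 4 genes rose at 20 Gy (5.24% of the genes tested) and 2 at 30 Gy (2.34%), and with the cross-dose pair left out as well, 2 rose at 20 Gy (2.95%) and 0 at 30 Gy (0.429%). At 40 Gy against control, LCK fell without 40Gy-1 (adjusted p = 0.0496 in limma), beside 11.3% of the genes tested that fell, and the other 5 genes were not called.

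Between doses, 2 of the 6 genes fell at 40 Gy against 20 Gy (CD3E and KLRK1), beside 15% of the genes tested that were called and 6.9% that fell. Against 30 Gy, CD3E and LCK fell, beside 12.2% called and 6.22% that fell. Without 40Gy-1 all but NKG7 fell in each of these comparisons, beside 16.1% of the genes tested that fell against 20 Gy and 15.3% against 30 Gy. The count of 5 against 20 Gy held with the 30 Gy pair also averaged (14.5%) and with the cross-dose pair left out as well (11.6%), whereas against 30 Gy it went from 5 (11.2%) to 2 (4.98%). With 40Gy-1 kept and the cross-dose pair left out, 0 of 6 were called in either comparison (4.56% and 3.38% of the genes tested).

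Between 30 and 20 Gy, limma called 0 of the 11644 genes, 0% of those tested, and 280 genes had an unadjusted p under 0.05. The median log2 difference of the 6 genes was -0.12. By mean FPKM, CD3E, CD2, KLRK1 and NKG7 were ordered 20 Gy, then 30 Gy, and LCK and CD8A 30 Gy, then 20 Gy, and none of these neighbours differed beyond the spread in the model. CD2 was the only one of the 6 whose 20 and 30 Gy libraries did not overlap.

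Scaling of the libraries did not turn the direction of any call of the 6 genes, and it added the calls of CD2 and CD8A given above. Quantile normalization also called CD8A at 30 Gy against control (adjusted p = 0.0401 in limma). Scaling each library to the same median moved the median log2 difference of all genes from 0.06 to -0.02 at 40 against 20 Gy and from 0.07 to -0.04 at 40 against 30 Gy. The split of calls over all genes went from 945 higher and 803 lower to 663 and 979 at 40 against 20 Gy. It went from 693 higher and 724 lower to 477 and 956 at 40 against 30 Gy, and from 348 and 513 to 276 and 774 at 40 Gy against control.

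The T cell genes were also set against PTPRC (CD45), which all leukocytes express, as a percentage of its FPKM in the same library. CD3E stood at 19.3 and 36.9% of PTPRC in the controls, 52.0, 62.6 and 43.3% at 20 Gy, 53.4, 35.8 and 43.9% at 30 Gy, and 19.9, 18.6 and 24.6% at 40 Gy. For CD3E, 40Gy-1 lay with the other 40 Gy libraries on this scale, and PTPRC was also highest there, at 6.26 FPKM beside 2.16 to 4.6 in the other 10 libraries. LCK stood at 20.3 and 34.5% in the controls, 47.1 to 55.8% at 20 Gy, 47.3 to 81.8% at 30 Gy and 30.9, 14.6 and 10.9% at 40 Gy. For CD8A the 40 Gy libraries were 31.5 to 36.5%, inside the range of the controls (16.0 and 41.1%) and below all 20 and 30 Gy libraries (49.6 to 78.1%). CD2 stood at 43.3 and 52.4% in the controls, 69.5 to 124% at 20 and 30 Gy, and 58.3, 48.3 and 41.7% at 40 Gy, so that 40Gy-1 stayed above both controls and above 40Gy-2 and 40Gy-3, though below all 20 and 30 Gy libraries.

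**Figure D3:**
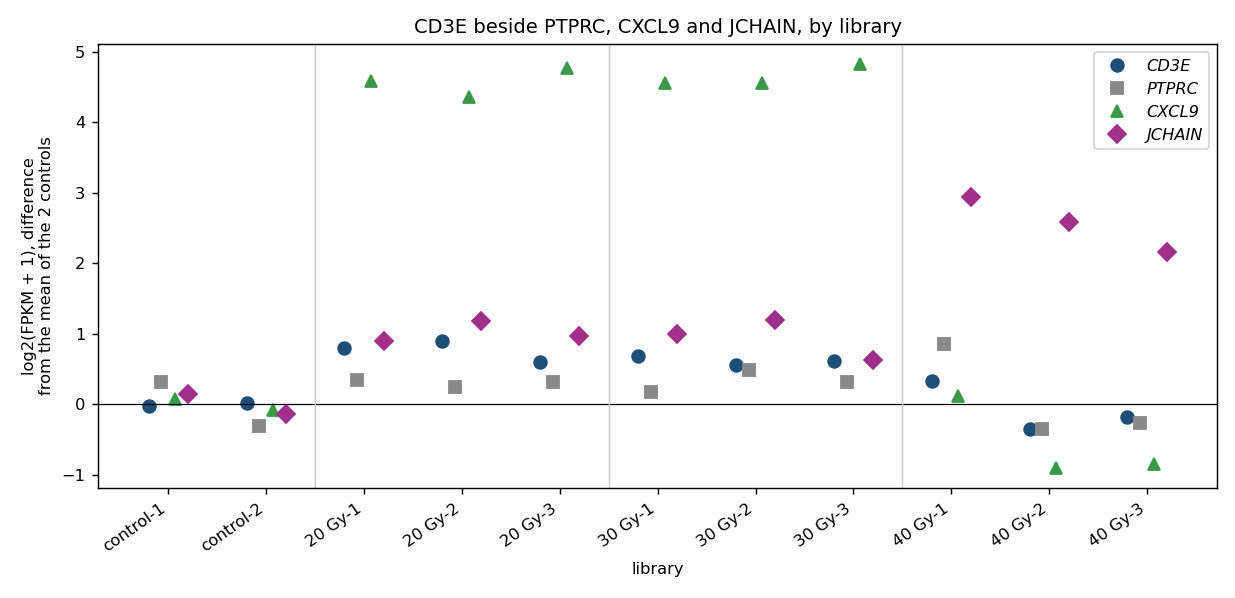
The vertical axis gives the difference of each library from the mean of the 2 controls in log2(FPKM + 1), for CD3E, PTPRC, the chemokine CXCL9 and the immunoglobulin joining chain JCHAIN, with libraries along the horizontal axis. CXCL9 is high in all 6 libraries of 20 and 30 Gy and near or below control at 40 Gy, JCHAIN is highest at 40 Gy, and PTPRC is highest in 40Gy-1.

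Other genes of T and NK cells were taken from 10 lists by role, with 154 genes listed, 79 in the table and 72 tested. Over the 72 genes the median log2 difference was 0.45 at 20 Gy, 0.37 at 30 Gy and 0.21 at 40 Gy against control. In limma, 3 rose in all irradiated libraries against control (CXCL9, CXCR4 and RORA), 2 rose at 20 Gy (CXCL9 and RORA), the same 2 rose at 30 Gy, and at 40 Gy CTSC and CXCR4 rose while CCL4 fell. Of all genes tested, 4.71%, 4.23%, 3.03% and 7.39% were called in these comparisons, in the same order and in either direction. At 40 against 20 Gy, 4 rose and 8 fell, with a median of -0.30, beside 8.12% of the genes tested that rose and 6.9% that fell. At 40 against 30 Gy, 4 rose and 4 fell, with a median of -0.24, beside 5.95% and 6.22%.

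Without 40Gy-1 more of the 72 genes were called in every comparison with control. At 20 and 30 Gy the differences themselves were unchanged, and only the shared estimate of spread moved. In limma, 11 rose and 4 fell in irradiated against control (5.44% and 6.72% of the genes tested), 15 rose and 3 fell at 20 Gy (6.96% and 7.15%), 12 rose and 4 fell at 30 Gy (4.71% each way), and 7 rose and 13 fell at 40 Gy (11.6% and 11.3%). CD5, CD6, CTSW, GATA3, IKZF1, ITGB7 and RUNX3 were among those that then rose in irradiated against control, and CX3CR1, CXCL11 and ERAP1 among those that fell. Against 20 Gy, 9 rose and 29 fell, beside 19.8% of the genes tested that rose and 16.1% that fell, and against 30 Gy, 8 rose and 30 fell, beside 17.6% and 15.3%. With the 30 Gy pair averaged and the cross-dose pair left out, every call of these lists was lost except those of CXCL9 and that of CXCR4 at 40 Gy against control.

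Of the T cell receptor and coreceptor genes, 7 of 12 were tested and 0 of 7 were called in any of the 7 comparisons. Without 40Gy-1, 4 fell and 1 rose at 40 Gy against each lower dose. Of all genes tested, 16.1% then fell and 19.8% rose against 20 Gy, and 15.3% fell and 17.6% rose against 30 Gy. CD5, a receptor that dampens T cell receptor signals, was 0.244 and 0.173 FPKM in the controls, 0.922 to 1.45 at 20 and 30 Gy, and 1.06, 0.0828 and 0.159 at 40 Gy, so that, as for LCK, 40Gy-1 was the only 40 Gy library above the controls. Its log2 difference between irradiated and control was 0.64 (SE 0.223, adjusted p = 0.146 in limma, and 0.0264 without 40Gy-1). PTPRCAP, a partner protein of CD45, was 8.93 and 6.25 FPKM in the controls, 14.5 to 29.5 at 20 Gy, 12.5 to 13.2 at 30 Gy and 34.6, 7.28 and 5.01 at 40 Gy (log2 difference 0.86 between irradiated and control, adjusted p = 0.399 in limma). CD6, a related receptor of T cells, went the other way at 40 Gy, with 0.999 FPKM in 40Gy-1 but 11.07 and 8.56 in 40Gy-2 and 40Gy-3, beside 0.162 to 1.72 in the other 8 libraries (log2 difference 1.12 between irradiated and control, adjusted p = 0.265 in limma, and 0.00245 without 40Gy-1).

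T cell receptor signalling had 5 of 18 genes tested and 0 of 5 called in any comparison, whereas without 40Gy-1, LCP2 and VAV1 were among those that fell at 40 Gy against each lower dose. LCP2, the adaptor SLP-76, was 2.96 and 3.54 FPKM in the controls, 5.22 to 6.09 at 20 and 30 Gy, and 8.05, 3.80 and 2.84 at 40 Gy (log2 difference 0.55 between irradiated and control, SE 0.253, adjusted p = 0.257 in limma). FYN, a kinase related to LCK, and SIT1, an adaptor that restrains the receptor, differed by 0.46 and 0.39 between irradiated and control (limma, adjusted p = 0.276 and 0.499). LCP2, FYN, SIT1 and CD6 overlap a neighbouring gene in the annotation, and the sources used here do not say whether counting used strand.

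Among the cytotoxic granule and effector genes, 12 of 17 were tested. At 40 against 20 Gy, 3 of 12 fell and 0 rose (6.9% and 8.12% of the genes tested), with a list median of -0.71. Without 40Gy-1, 6 fell and 1 rose (16.1% and 19.8% of the genes tested). GNLY, granulysin, which permeabilises membranes, was 1.43 and 3.08 FPKM in the controls, 2.45 to 3.01 at 20 Gy, 2.43 to 3.09 at 30 Gy and 1.25, 0 and 0.514 at 40 Gy, where 40Gy-2 is listed at 0. GNLY fell by 1.31 against 20 Gy and by 1.35 against 30 Gy (SE 0.284, limma, adjusted p = 0.0162 and 0.0153). The calls of GNLY were lost without any 1 of 20Gy-1, 20Gy-3, 40Gy-2 or 40Gy-3 for the first comparison (adjusted p 0.0527 to 0.0678) and without any 1 of 30Gy-1, 30Gy-2 or 40Gy-2 for the second (0.0538 to 0.06).

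CTSW, cathepsin W of cytotoxic lymphocytes, followed the T cell genes more closely, with 2.91 and 3.63 FPKM in the controls, 9.01 to 9.76 at 20 Gy, 7.52 to 8.49 at 30 Gy and 6.82, 1.15 and 1.42 at 40 Gy. CTSW fell by 1.59 against 20 Gy and by 1.39 against 30 Gy (SE 0.394, limma, adjusted p = 0.0252 and 0.0457). The first call was lost without any 1 of 20Gy-1, 20Gy-3, 40Gy-2 or 40Gy-3 (0.0807 to 0.0954), and the second without any library except 40Gy-1 (0.0579 to 0.177). CST7, cystatin F, an inhibitor of the cathepsins that activate granzymes, fell by 0.74 against 20 Gy (SE 0.219, adjusted p = 0.0479 in limma), a call lost without any 1 of 20Gy-1, 20Gy-3, the 30 Gy pair, 40Gy-2 or 40Gy-3 (0.0694 to 0.177). CTSC, the cathepsin that activates granzymes and is also made by myeloid cells, rose by 0.90 at 40 Gy against control (SE 0.178, adjusted p = 0.0161 in limma), a call lost without control-2 (0.112).

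Granzymes were low throughout. GZMA was 1.80 to 2.55 FPKM in the controls, 2.31 to 3.40 at 20 Gy, 3.07 to 3.47 at 30 Gy and 1.56 to 3.69 at 40 Gy. GZMH stood between 0.752 and 1.81 FPKM in all libraries, and since granzyme genes are close copies of each other, how reads were split between them is uncertain. STX11, UNC13D and XCL1 were the uncalled genes of this list with the widest differences between irradiated and control, at 0.71, 0.64 and 0.42 (limma, adjusted p = 0.458, 0.326 and 0.562). STX11 and UNC13D are needed for granule release, and XCL1 is a chemokine of NK and CD8 T cells.

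NK receptors and adaptors had 7 of 17 genes tested. At 40 against 20 Gy, 2 of these fell and 0 rose (6.9% and 8.12% of all genes tested), with a median of -0.30. The same 2 fell without 40Gy-1 (16.1% of all genes tested). NCR1, the NK cell receptor NKp46, was 1.31 and 1.74 FPKM in the controls, 3.66, 2.72 and 4.17 at 20 Gy, 2.11, 1.53 and 3.39 at 30 Gy, and 1.57, 0.609 and 0.374 at 40 Gy. Like KLRK1, it was highest in 20Gy-1, 20Gy-3 and 30Gy-3. NCR1 fell by 1.33 at 40 against 20 Gy (SE 0.270, adjusted p = 0.0125 in limma), a call lost without any 1 of 20Gy-1, 20Gy-3, 40Gy-2 or 40Gy-3 (0.0504 to 0.0569). IL2RB, the receptor chain shared by interleukins 2 and 15, fell by 0.88 (SE 0.253, adjusted p = 0.0433 in limma), a call lost without any library except 40Gy-1 (0.0514 to 0.144).

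KLRB1, a C-type lectin receptor of NK and T cells, had a log2 difference of -0.67 between irradiated and control (SE 0.284, adjusted p = 0.223 in limma). TYROBP, the adaptor DAP12 that NK and myeloid cells share, differed by -0.61 (adjusted p = 0.537 in limma) and stood at 70.5 FPKM in 40Gy-1 beside 13.4 and 20.9 in 40Gy-2 and 40Gy-3. SLAMF7, a receptor of NK and plasma cells, differed by 0.58 (adjusted p = 0.315 in limma).

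Of the checkpoint and activation receptors, 2 of 13 were tested. Of these, 1, HAVCR2 (TIM-3), rose at 40 Gy against 20 Gy (8.12% of all genes tested rose) and against 30 Gy (5.95%). At 40 Gy against control 0 were called. Its level was 1.23 and 0.366 FPKM in the controls, 0.366 to 1.10 at 20 Gy, 0.610 to 1.12 at 30 Gy and 1.54, 4.41 and 3.94 at 40 Gy. HAVCR2, which macrophages and dendritic cells also express, rose by 1.34 against 20 Gy and by 1.16 against 30 Gy (SE 0.310, limma, adjusted p = 0.0206 and 0.0379). The first call was lost without any 1 of 20Gy-1, 20Gy-3, 40Gy-2 or 40Gy-3 (0.0786 to 0.0842), and the second without any irradiated library except 20Gy-2 and 40Gy-1 (0.0513 to 0.154). CD69, an early activation receptor, was 2.07, 2.23 and 2.13 FPKM in 20Gy-1, 20Gy-3 and 30Gy-3 and at most 0.680 elsewhere (log2 difference 0.51 between irradiated and control, adjusted p = 0.568 in limma).

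Of the T and NK cell transcription factors, 9 of 16 were tested. TBX21, the factor T-bet of type 1 T cells and NK cells, was 0.529 and 0.439 FPKM in the controls, 0.915 to 1.20 at 20 Gy, 0.973 to 1.28 at 30 Gy and 0.614, 0.0584 and 0.0654 at 40 Gy. TBX21 fell by 0.73 against 20 Gy and by 0.78 against 30 Gy (SE 0.185, limma, adjusted p = 0.0266 and 0.0246). The calls were lost without any 1 of 20Gy-1, 20Gy-3, 40Gy-2 or 40Gy-3 (0.0882 to 0.102) and without any 1 of the 30 Gy libraries, 40Gy-2 or 40Gy-3 (0.0571 to 0.106). RUNX3, a factor of cytotoxic lymphocytes, differed by 0.73 between irradiated and control (SE 0.227, adjusted p = 0.106 in limma, 0.0229 without 40Gy-1 and 0.0371 with a pseudocount of 0.1). ID2 and GATA3, which other liver cells also express, differed by 0.88 and 0.78 (limma, adjusted p = 0.223 and 0.511), and without 40Gy-1 GATA3 rose (adjusted p = 0.00318).

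Growth and homing receptors had 10 of 17 genes tested, of which CXCR4 and S1PR1 were among those that rose at 40 Gy against both lower doses while 0 fell. Of all genes tested, 8.12% rose and 6.9% fell against 20 Gy, and 5.95% rose and 6.22% fell against 30 Gy. CXCR4, the receptor of CXCL12, rose by 2.0 at 40 Gy against control (SE 0.273, adjusted p = 0.00342 in limma), with 0.187 and 0.448 FPKM in the controls and 3.29, 5.48 and 4.14 at 40 Gy. S1PR1, which guides lymphocytes out of tissue and is abundant in endothelium, rose by 1.08 against 20 Gy and by 1.24 against 30 Gy (SE 0.238, limma, adjusted p = 0.0173 and 0.0109). For S1PR1 the first call was lost without any 1 of 20Gy-1, 20Gy-3 or 40Gy-2 (0.0579 to 0.0713), and both with the cross-dose pair left out (0.0792 and 0.0635).

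CXCR4 rose by 1.25 in irradiated libraries against control as well (SE 0.233, adjusted p = 0.0161 in limma), a call lost without either control (0.0963 to 0.164). Its rise of 1.15 against 20 Gy and of 1.08 against 30 Gy (limma, adjusted p = 0.0152 and 0.0202) was lost without 20Gy-1 or 40Gy-2 (0.0501 to 0.0652) and without any 1 of the 30 Gy pair, 40Gy-2 or 40Gy-3 (0.0543 to 0.0918). CX3CR1 and IL2RG were among the uncalled genes with the widest differences between irradiated and control, at -1.64 and 1.09 (limma, adjusted p = 0.0641 and 0.191). The difference of CX3CR1 was called without 40Gy-1 (adjusted p = 0.0283 in limma), without 40Gy-3 (0.0458) and with the library number as a block (0.027). CX3CR1 is a chemokine receptor of effector lymphocytes and macrophages, and IL2RG is the common gamma chain of interleukin receptors.

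The chemokines that draw CXCR3-bearing T and NK cells, with growth factors of these cells, had 7 of 11 genes tested. CXCL9 separated the groups most widely of all list genes: 2.53 and 2.15 FPKM in the controls, 79.4, 67.3 and 90.3 at 20 Gy, 77.6, 77.4 and 93.6 at 30 Gy, and 2.60, 0.780 and 0.845 at 40 Gy. CXCL9 rose by 4.57 at 20 Gy and by 4.65 at 30 Gy against control (SE 0.292, limma, adjusted p = 5.18e-05 and 4.44e-05), and fell by 5.12 and 5.20 at 40 Gy against 20 and 30 Gy (SE 0.261, limma, adjusted p = 2.23e-05 and 1.94e-05). These calls held under every alternative run. In 40Gy-1 CXCL9 lay just above both controls, and in 40Gy-2 and 40Gy-3 it lay below both. Unlike for LCK, CD2 and CD8A, the library 40Gy-1 lay below all 20 and 30 Gy libraries. Without 40Gy-1, CXCL9 was also called as lower at 40 Gy against control (limma), beside 11.3% of the genes tested that fell.

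CXCL10 and CXCL11, the other ligands of CXCR3, were not called with all libraries. CXCL10 was 18.4 and 4.90 FPKM in the controls, 103, 22.7 and 121 at 20 Gy, 28.6, 32.1 and 120.1 at 30 Gy, and 53.9, 24.6 and 31.0 at 40 Gy, again highest in 20Gy-1, 20Gy-3 and 30Gy-3 (log2 difference 2.19 between irradiated and control, adjusted p = 0.115 in limma). CXCL11 differed by -1.70 (adjusted p = 0.112 in limma), and without 40Gy-1 it fell by 1.97 (adjusted p = 0.00139). Both overlap the gene ART3 in the annotation. CCL4, a chemokine of activated NK cells, T cells and macrophages, was 1208 and 568 FPKM in the controls, 429 to 639 at 20 and 30 Gy, and 361, 179.5 and 214.5 at 40 Gy, and it fell by 1.78 at 40 Gy against control (SE 0.381, adjusted p = 0.0218 in limma). The call of CCL4 was lost without any 1 of control-1, 40Gy-2 or 40Gy-3 (0.0579 to 0.172) and with quantile normalization (0.0547).

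Class I antigen presentation makes the ligands of CD8 T cells. Together with ligands of NKG2D it had 10 of 23 listed genes tested, and 0 of 10 were called in any comparison. Without 40Gy-1, 6 fell at 40 Gy against each lower dose (16.1% of all genes tested against 20 Gy, 15.3% against 30 Gy). In the same fit 1 rose against 20 Gy (19.8%). PSMB9, an immunoproteasome subunit, was 2.68 and 2.17 FPKM in the controls, 6.08 to 7.49 at 20 Gy, 4.86 to 8.29 at 30 Gy and 9.87, 1.95 and 1.09 at 40 Gy, so that 40Gy-1 and the other 40 Gy libraries again lay on opposite sides of the controls (log2 difference 0.88 between irradiated and control, adjusted p = 0.331 in limma). ERAP1 and NLRC5, a peptide-trimming enzyme and the activator of class I genes, differed by -0.47 and 0.42 (limma, adjusted p = 0.528 and 0.515), and without 40Gy-1 ERAP1 fell (adjusted p = 0.0137).

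Genes of gamma delta and innate-like T cells had 3 of 10 tested. RORA, a nuclear receptor of innate lymphocytes that hepatocytes also express, was 1.24 and 0.842 FPKM in the controls, 7.28, 5.36 and 7.27 at 20 Gy, 4.64, 5.22 and 6.96 at 30 Gy, and 1.66, 3.98 and 3.74 at 40 Gy. RORA rose by 1.9 at 20 Gy and by 1.69 at 30 Gy (SE 0.282, limma, adjusted p = 0.00499 and 0.0116), calls lost without control-2 (0.0612 and 0.119). RORA fell by 0.93 at 40 against 20 Gy (adjusted p = 0.0355 in limma), a call lost without any 1 of 20Gy-1, 20Gy-3, the 30 Gy pair, 40Gy-2 or 40Gy-3 (0.0516 to 0.126). RORA overlaps a neighbouring gene in the annotation. ZBTB16 and SOX13, factors of innate-like and gamma delta T cells that also occur elsewhere, differed by 0.83 and 0.21 between irradiated and control (limma, adjusted p = 0.293 and 0.559).

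**Figure D4:**
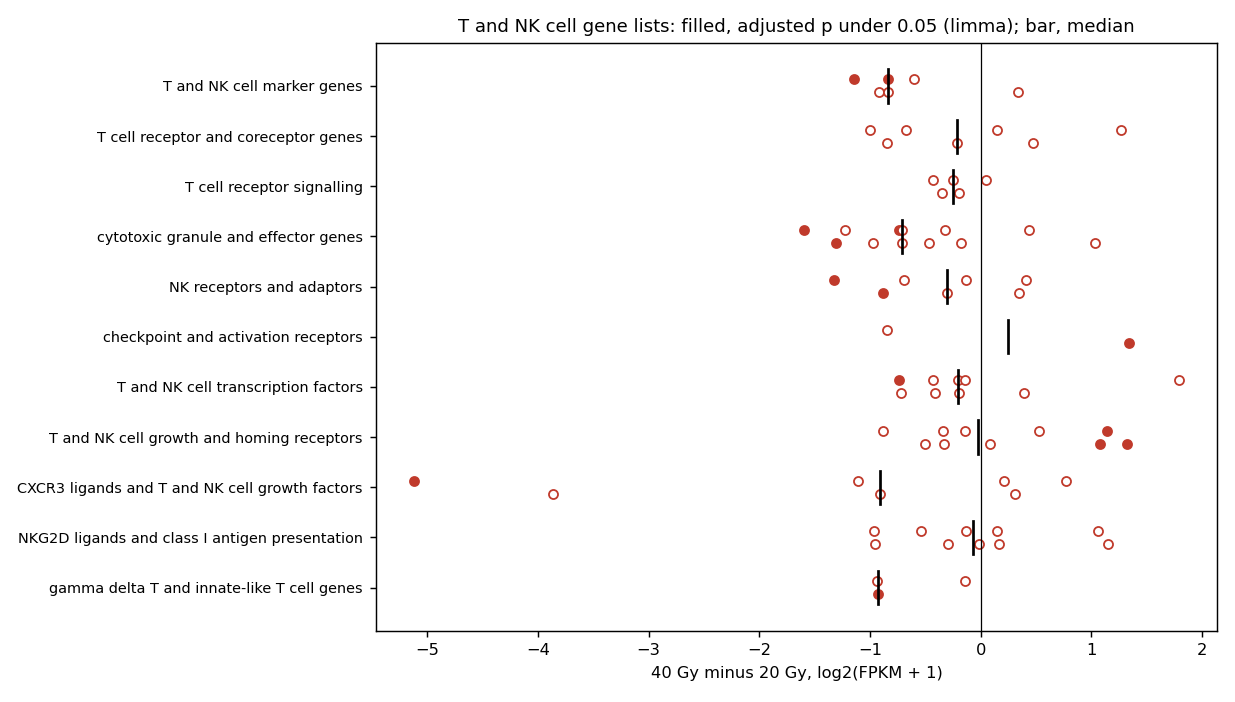
Each point is 1 tested gene of a list, placed by its difference between 40 and 20 Gy in log2(FPKM + 1), with filled points for an adjusted p under 0.05 in limma and a bar at the median of each list. The bar of the 6 marker genes lies at -0.84 and that of the cytotoxic genes at -0.71, while that of the growth and homing receptors lies at -0.03 with 3 filled points above 0.

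Markers of other cells moved between the same groups, and their part in the results above was not tested. The summed FPKM of the 10 leukocyte markers was 88.9 to 111 in the controls, 94.3 to 149 at 20 Gy, 98.7 to 132 at 30 Gy and 88.1 to 265 at 40 Gy. B and plasma cell markers (9 of 13 in the table) summed to 43.6 to 48.8 FPKM in the controls, 44.0 to 49.7 at 20 Gy, 45.7 to 49.6 at 30 Gy and 75.5 to 118 at 40 Gy. Neutrophil markers (4 of 8) summed to 1.66 to 4.99, 1.20 to 2.15, 1.55 to 2.06 and 10.8 to 18.0 FPKM in the same order, with S100A8 and S100A12 at 0 in some libraries. The sums of these last 2 lists were higher in every 40 Gy library than in every other library, 40Gy-1 included, unlike those of the 6 T and NK cell genes. Of the 4 neutrophil markers, S100A12 and CSF3R did so singly, while S100A8 in 40Gy-1 lay between the controls. MMP9 was 3.09 FPKM in 40Gy-1 but 0.0968 and 0.112 in 40Gy-2 and 40Gy-3, below both controls (0.386 and 0.13).

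The B and plasma cell list did not move as one. CD79A, a chain of the B cell receptor, was 32.95 and 31.02 FPKM in the controls, 16.7 to 22.9 at 20 and 30 Gy, and 12.6, 15.7 and 19.2 at 40 Gy. CD79A fell by 0.99 at 40 Gy against control (SE 0.195, adjusted p = 0.0159 in limma), by 0.81 at 20 Gy (0.0473) and by 0.80 in irradiated against control (0.0258). Each of these calls was lost without either control (0.0727 to 0.206), and the first also without 40Gy-2 (0.0525), while the call at 20 Gy was lost in 16 of 24 alternatives and that in irradiated against control in 9 of 24.

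JCHAIN, the joining chain of secreted antibodies, which supplies 77.4 of the 118 FPKM of that list in 40Gy-1, rose by 2.56 at 40 Gy against control (SE 0.256, adjusted p = 0.00109 in limma), with 10.3 and 8.28 FPKM in the controls, 14.8 to 22.4 at 20 and 30 Gy and 77.4, 60.2 and 44.9 at 40 Gy. Macrophage markers (10 of 13) summed to 894 to 1140 FPKM in the controls, 543 to 1050 at 20 Gy, 557 to 947 at 30 Gy and 933 to 1530 at 40 Gy, with LYZ listed at 0 in 40Gy-1.

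The sum of the stellate cell and myofibroblast markers also split the 40 Gy libraries. All 10 were in the table, and they summed to 58.1 and 88.7 FPKM in the controls, 162 to 242 at 20 Gy, 156 to 195 at 30 Gy, and 405, 70.5 and 56.3 at 40 Gy. COL1A1 and COL3A1 supplied 139.3 and 107.3 FPKM of the sum in 40Gy-1. In 40Gy-2 and 40Gy-3, COL1A2, COL3A1, PDGFRB and LRAT lay below both controls, DCN and LUM above both, and ACTA2 and RGS5 between them. COL1A1 and TAGLN lay above both controls in 40Gy-2 and between them in 40Gy-3. The log2 differences of the markers between irradiated and control were above 0 for 10 of 10, with a median of 1.0, and 0 were called in that comparison (limma). The sum of the dendritic cell markers (6 of 9) had a similar split, with 15.2 and 15.5 FPKM in the controls, 20.5 to 28.5 at 20 and 30 Gy, and 27.1, 10.8 and 10.8 at 40 Gy. IRF8 supplied most of that sum, with 9.52 and 9.69 FPKM in the controls and 20.8, 6.96 and 7.21 at 40 Gy. At 20 and at 30 Gy against control, 4 of the 6 markers lay above 0 and 2 below, and FLT3 and BATF3 had lower means than in control. CCR7 and FLT3 did not split the 40 Gy libraries this way. The sum of the endothelial markers (10 of 10 in the table) went the other way, from 307 and 373 FPKM in the controls to 134 to 171 at 20 and 30 Gy and 138, 254 and 229 at 40 Gy. CLEC4G supplied 205.7 and 263.1 FPKM of that sum in the controls and 20.5, 164.2 and 146.3 at 40 Gy. Against control, 8 of the 10 markers lay below 0 at 20 Gy, 9 at 30 Gy and 6 at 40 Gy, while 2, 1 and 4 lay above 0. None of the markers of these 3 lists in the table was at 0 in any library.

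Hepatocyte markers (9 of 10) summed to 45500 to 73800 FPKM in the controls and to 29300 to 32500 at 40 Gy. ALB supplied 42550 and 27030 FPKM of that sum in the controls and 7050 to 10810 at 40 Gy. At 40 Gy against control, 7 of the 9 lay below 0 and 2 above. ALB and TTR were called as lower (limma), beside 7.39% of the genes tested called in either direction. FGB, CPS1 and CYP2E1 had higher mean FPKM at 40 Gy than in control. Bile duct markers (5 of 7) summed to 212 and 270 FPKM in the controls and 67.9 to 160 in the irradiated libraries. CLDN4 supplied most of that sum, with 196.4 and 235.6 FPKM in the controls and 34.96 to 100.7 in the irradiated libraries. The list did not move as one: of the 4 tested markers, CLDN4 fell in irradiated against control, while 3 lay above 0 (median log2 difference 0.61). Erythroid markers (4 of 8) summed to 833 and 109 FPKM in the controls and 11.7 to 55.4 at 40 Gy, and mast cell and basophil markers (2 of 6) to 0.64 to 2.83 FPKM in all libraries.

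The genes whose pattern over the 11 libraries was most like the mean profile of the 6 genes were FMOD (Pearson r = 0.983), KCTD7 (0.981), ITGB7 (0.981), CTSW (0.978), CCDC88B (0.973), DGKA (0.971), HMGCS1 (0.970), ANPEP (0.968), MYO1G (0.967) and PLCB2 (0.967). ITGB7 and CTSW are also in the lists above. ITGB7, a chain of gut-homing integrins, was 0.847 and 0.691 FPKM in the controls, 2.68 to 3.52 at 20 and 30 Gy, and 3.37, 0.557 and 0.423 at 40 Gy. HMGCS1, an enzyme of cholesterol synthesis, had the same split of the 40 Gy libraries at higher levels, with 16.5 and 5.02 FPKM in the controls, 64.8 to 95.8 at 20 and 30 Gy, and 78.1, 4.86 and 4.33 at 40 Gy. The mean profile itself, in SD units, was -0.72 and -0.71 in the controls, 0.47 to 0.68 at 20 and 30 Gy, 0.69 in 40Gy-1 and -1.33 and -1.29 in 40Gy-2 and 40Gy-3. It includes NKG7, which was highest in 40Gy-1 (23.3 FPKM) and correlated at 0.19 with the other 5 genes. The share of NKG7 in the value of 40Gy-1 and in the order of the nearest genes was not tested.

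CD3E and KLRK1 had different nearest genes. Those of CD3E were BEGAIN (r = 0.975), MYMK (0.975), DLG4 (0.974), RPS6KL1 (0.969) and CCDC92 (0.967), in which 40Gy-1 stood below all 20 and 30 Gy libraries. Those of KLRK1 were TRAF1 (0.962), MEIOB (0.944), CEP131 (0.941), MADD (0.941) and LONRF1 (0.940). TRAF1, an adaptor of tumour necrosis factor receptors, was 4.12, 4.54 and 4.16 FPKM in 20Gy-1, 20Gy-3 and 30Gy-3 and at most 2.34 elsewhere. These correlations are over 11 libraries that share groups and include near-identical pairs, so they describe these libraries only.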

How the data were processed

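RNA of 11 pig liver libraries was read as paired ends on an Illumina instrument after a TruSeq preparation, per the labels' protocols. The authors deposited 1 table with FPKM values of 12505 genes. HISAT2, Cufflinks and HTSeq, and the builds Sscrofa11.1 and mm10 (a mouse build), stand in the submitters' processing notes with no role stated, and the gene IDs are those of pig. No source used here states the strand setting. FPKM is relative to each library, so a gene group that takes more of the RNA lowers all other values. A value of 0 can be a failed estimate and is given as listed at 0.

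A symbol was found for 10561 IDs and none for 1944. The 29 genes listed at 0 throughout were dropped. All value columns were mapped to libraries by name. Coordinates span the whole gene, introns included, and come from RefSeq's gene table of Sscrofa11.1 by symbol. No whole-read step was found in the low values (the commonest ratio between 2 libraries was shared by at most 1.62% of the genes compared), so the depth is unknown, no counting interval can be given, and precision rests on the spread between libraries.

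The 11644 genes that reached 1 FPKM in 2 or more libraries were analysed as log2(FPKM + 1) with 4 group means in limma 3.58.1 (R 4.3.3), using eBayes with trend (7 residual degrees of freedom). Two-sided p-values were given Benjamini-Hochberg adjustment across the 11644 genes, with 0.05 as the threshold for a call. The procedure was tested on simulated data. From each list the text names the genes called in any comparison and up to 3 others with the widest difference between irradiated and control, and a few genes of contrasting levels (CD8B, GZMA, GZMH) were added after their values were seen. JCHAIN and CD79A were named from the marker lists after their values were seen. Some genes that this rule names are not reported here. The 10 genes and the lists were chosen with earlier results of these data known. Alternatives were other pseudocounts, filters, scalings and variance models, near-identical libraries averaged or left out, each library left out, and the library number as a block. The alternatives that leave out 40Gy-1 together with changes to the near-identical libraries were chosen after seeing the data.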

Additional observations from a re-analysis of the deposited data

How the results depend on the processing

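Recomputing single-gene differences gave 2615 values under the alternatives and left 2271 with the same direction and side of the threshold, while 245 lost a call, 63 gained one and 36 changed sign. The causes of the changes below were not tested. The pseudocount, the filter and the variance model moved no count of calls by over 1.5 times.

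With the 30 Gy pair (30Gy-1 and 30Gy-2) averaged, limma called 336 genes in irradiated against control, 296 at 20 Gy, 130 at 30 Gy and 541 at 40 Gy, and 530 at 40 against 30 Gy, with 0 of the 6 genes in the last. Without the cross-dose pair (20Gy-3, 30Gy-3) the counts were 290, 200, 112 and 535 against control, 2 at 30 against 20 Gy, 531 at 40 against 20 Gy and 394 at 40 against 30 Gy, with 0 of the 6 in the last 2 comparisons. With both changes they were 34, 56, 8 and 122 against control, 1 at 30 against 20 Gy, 139 at 40 against 20 Gy and 1 at 40 against 30 Gy, again with 0 of the 6 in the last 2.

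With 40Gy-1 left out and the 30 Gy pair averaged, 1045, 1161 and 2222 genes were called in irradiated, 20 Gy and 40 Gy against control, 3739 at 40 against 20 Gy and 2784 at 40 against 30 Gy. Of the 6 genes, 1, 4 and 2 were then called in irradiated, 20 Gy and 30 Gy against control, and 5 in each of the last 2 comparisons. With the cross-dose pair left out as well, 88 genes were called at 30 Gy and 1712 at 40 Gy against control, 2 at 30 against 20 Gy and 2700 at 40 against 20 Gy, with 2 of the 6 at 20 Gy against control and 5 at 40 against 20 Gy. Quantile normalization called 1 of the 6 at 30 Gy, CD8A (adjusted p = 0.0401 in limma).

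Leaving out each library in turn gave 99 to 1415 genes called in irradiated against control, 132 to 1643 at 20 Gy, 87 to 1098 at 30 Gy, 237 to 2663 at 40 Gy, 0 to 3 at 30 against 20 Gy, 483 to 4183 at 40 against 20 Gy and 470 to 3832 at 40 against 30 Gy. Of the 6 genes, 0 to 2, 0 to 4, 0 to 4 and 0 to 1 were called against control, 0 at 30 against 20 Gy, and 0 to 5 at 40 Gy against each lower dose.

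All sign changes were of differences that were not called. With each library left out in turn, the log2 difference at 40 Gy against control ran from -0.273 to 0.068 for CD3E, from -0.274 to 0.341 for CD2, from -0.029 to 0.456 for CD8A and from -0.478 to 0.133 for LCK, with the negative ends of all 4 reached without 40Gy-1. For NKG7 it ran from -0.019 to 0.328 in irradiated against control, from -0.131 to 0.252 at 20 Gy, from -0.157 to 0.216 at 30 Gy and from -0.17 to 0.871 at 40 Gy. Between doses NKG7 ran from -0.263 to 0.14 at 30 against 20 Gy, from -0.276 to 0.766 at 40 against 20 Gy and from -0.178 to 0.863 at 40 against 30 Gy. With 40Gy-1 left out and the 30 Gy pair averaged, CD2, CD8A and NKG7 at 40 Gy against control stood at -0.274, -0.029 and -0.17, also without the cross-dose pair. NKG7 then stood at -0.053 in irradiated against control, -0.096 at 30 Gy (also with 40Gy-1 kept), -0.276 at 40 against 20 Gy and -0.074 at 40 against 30 Gy, and the last 2 were -0.366 and -0.386 when the cross-dose pair was left out too. At 30 Gy NKG7 was -0.001 with quantile normalization and -0.004 with median scaling, and at 30 against 20 Gy it was 0.02 in each fit without the cross-dose pair. With all 3 changes together, KLRK1 was -0.03 and CCL3L1 -0.16 in irradiated against control.

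The library numbers do not pair the libraries: deviations from the group means correlated at -0.616 to 0.645 over 15 same-numbered pairs, 7 of them over 0.1, and 5 of 11 libraries correlated best with their own number. With the number as a block, 440, 399, 244 and 805 genes were called against control, 0 at 30 against 20 Gy, 1844 at 40 against 20 Gy and 1498 at 40 against 30 Gy. Of 109 single-gene values, the block lost 3 calls (CST7 at 40 against 20 Gy, CTSW at 40 against 30 Gy, CD79A at 20 Gy against control) and gained 2 (CD2 at 40 against 20 Gy, CX3CR1 in irradiated against control).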

Other observations

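The 3 libraries 20Gy-1, 20Gy-3 and 30Gy-3 shared a set of values that the dose does not separate. CYP2E1, a cytochrome P450 of pericentral hepatocytes, was 62.3, 60.4 and 63.5 FPKM in them and 1091 to 1859 in the other 8 libraries. The same 3 libraries held the highest values of CD69, the early activation receptor, with 2.07 to 2.23 FPKM beside at most 0.680 elsewhere. CCL3L1, a chemokine of activated lymphocytes and macrophages, was 83.8, 105 and 132.5 FPKM in them and 0.395 to 5.17 elsewhere (log2 difference 0.84 between irradiated and control, adjusted p = 0.774 in limma). STX11 stood at 10.2, 10.5 and 8.29 FPKM in them and at most 3.33 elsewhere, and KLRK1, NCR1 and SLAMF7 were highest there too. These libraries were singled out after their values were seen and are compared by no test, and the pair of 20Gy-3 and 30Gy-3 is near-identical.

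A second set of values set 40Gy-2 and 40Gy-3 apart from all other libraries, 40Gy-1 included. GATA3, a factor of type 2 T cells that other cells also make, was 12.6 and 7.72 FPKM in them and 0.310 to 0.735 in the other 9 libraries. CD6 was 11.07 and 8.56 FPKM in them and at most 1.72 elsewhere, while CD3E, LCK, CD2 and KLRK1 were lower in them than in every other library. HAVCR2 was 4.41 and 3.94 FPKM in them and at most 1.54 elsewhere. This set was also noticed in the data and has no test of its own.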
